A study of Mus musculus with 8 samples.

Results

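The agrin-MuSK organizers of the neuromuscular junction were examined in tibialis anterior (TA) muscle as 9 genes chosen by name: *Agrn*, *Lrp4*, *Musk*, *Dok7*, *Rapsn*, *Colq*, *Etv5*, *Erbb3* and *Ufsp1*. All 9 were among the 16686 genes of the deposited table, and all 9 passed the filter on low counts that left 12542 genes for testing. RNA-seq had been carried out on the TA muscle, a fast-twitch muscle of the lower leg, of 4 WT and 4 C2-/- male mice, each aged 22 months and on the FVBN background, with 1 library per mouse. C2-/- mice carry a *Mybpc2* allele in which a cassette stands in place of a run of exons in every cell of the body, and they received no treatment that the labels name. *Mybpc2* encodes the fast isoform of myosin-binding protein C, a thick-filament protein of fast-twitch fibres. The comparison asks which transcripts differ between aged muscle with and without this protein.

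The neuromuscular junction is the synapse at which a motor neuron commands a muscle fibre. Agrin, released into the cleft, binds LRP4 on the fibre, and LRP4 in turn activates the receptor tyrosine kinase MuSK. With the adaptor DOK7, active MuSK drives the scaffold protein rapsyn to pack acetylcholine receptors under the nerve ending, while the collagen tail ColQ anchors acetylcholinesterase in the cleft. A few nuclei beneath each synapse transcribe these genes more strongly than the other nuclei of the fibre, a programme in which the ETS factor ETV5 and neuregulin receptors such as ERBB3 have known roles. A whole-muscle library averages these few nuclei with all others, so that fewer synapses or fewer synaptic nuclei and less RNA per nucleus cannot be told apart in these data.

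None of the 9 organizers passed edgeR's quasi-likelihood test for a difference between the genotypes. The log2 fold changes of C2-/- over WT lay between −0.26 for *Musk* and 0.51 for *Erbb3*, 4 of them above 0 and 5 below, with a median of −0.03 against −0.02 over all 12542 tested genes. Of the 9 genes, 0 passed an adjusted p of 0.05 and 0 passed an unadjusted p of 0.05 in edgeR, limma-voom or DESeq2. The smallest edgeR values were an unadjusted p of 0.151 and a p of 0.968 after adjustment. Among all tested genes, 0.0319% passed the adjusted threshold, while 3.38% passed the unadjusted threshold with a higher level in C2-/- and 1.91% with a lower level. The expression of the genotypes overlapped for each of the 9 genes, and it did not overlap for 3.38% of all tested genes. For *Agrn*, *Dok7*, *Rapsn*, *Colq* and *Etv5*, the 95% interval of the fold change lay within 1.5-fold in either direction, which held for 53.0% of all tested genes. For *Lrp4*, *Musk*, *Erbb3* and *Ufsp1* it reached past 1.5-fold, so that with 4 mice per genotype a difference of that size lay within the error.

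Between 25425993 and 29747692 counts were assigned to genes in each mouse, and 3 counts, the smallest level that can be shown, equalled 0.101 to 0.118 CPM (counts scaled to library size with TMM factors), a limit that covers counting error only. The targeted gene, *Mybpc2*, was at 4964 to 7392 CPM in WT and at 4.35, 4.02, 38.3 and 3.85 CPM in C2-/- replicates 1 to 4. Its log2 fold change was −8.82 ± 0.94 (SE), with an adjusted p of 0.0075 in edgeR. The 7 markers that define muscle fibres summed to at least 134600 CPM in every mouse. Of the 4 motor neuron cell body markers, *Isl1* was the only one among the genes of the table, and it was at most at 0.151 CPM. WT replicate 2 stood apart from the other mice. It held the lowest level of all 8 mice for 24.5% and the highest for 27.5% of the tested genes, whereas no other mouse held more than 13.4% of the lowest or 12.6% of the highest levels. Results of the members are therefore given with and without this mouse.

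The ligand *Agrn* (chromosome 4, 156165290 to 156197519, minus strand, GRCm38) encodes agrin, the heparan sulfate proteoglycan that starts clustering of receptors. In WT, its expression was 9.52, 7.0, 9.56 and 7.78 CPM in replicates 1 to 4. In C2-/-, it was 8.02, 9.60, 8.30 and 9.81 CPM. WT replicate 2 was the lowest of all mice and C2-/- replicate 4 the highest, with a range of 1.40-fold over the 8 mice, and the genotypes overlapped almost entirely. Its log2 fold change was 0.08 ± 0.15 (SE), with a 95% interval of −0.25 to 0.41 and an unadjusted p of 0.614 in edgeR (exact permutation p = 0.457, 2-sided, n = 4 mice per genotype, for which 0.0286 is the smallest p possible).

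*Lrp4* (chromosome 2, 91457471 to 91513901, plus strand) encodes the low-density lipoprotein receptor-related protein that receives agrin on the fibre. Expression was 11.8, 4.89, 13.3 and 11.6 CPM in WT replicates 1 to 4, and 10.1, 12.4, 9.72 and 11.1 CPM in C2-/- replicates 1 to 4. The other 7 mice lay between 9.72 and 13.3 CPM, and WT replicate 2 alone lay below them, at 0.401 times the mean of the other WT mice. For *Lrp4* the log2 fold change was 0.06 ± 0.26 (95% interval −0.52 to 0.64, unadjusted p = 0.824 in edgeR). Without WT replicate 2 it was −0.17 with an unadjusted p of 0.209, and without C2-/- replicate 2 it was −0.007, so that its direction rested on single mice.

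*Musk* (chromosome 4, 58285725 to 58377848, plus strand) encodes the kinase itself and varied most among the 4 signalling genes. WT replicates 1 to 4 expressed it at 14.1, 19.7, 18.3 and 22.8 CPM, and C2-/- replicates 1 to 4 at 8.55, 15.4, 25.7 and 13.1 CPM. Both the lowest and the highest of the 8 mice were C2-/- mice, 3.01-fold apart. The mean was 18.7 ± 3.6 CPM in WT and 15.7 ± 7.27 CPM in C2-/- (SD, n = 4), and the log2 fold change was −0.26 ± 0.29 (95% interval −0.90 to 0.39, unadjusted p = 0.398 in edgeR). Single C2-/- mice moved this value in both directions. The log2 fold change of *Musk* was −0.60 without C2-/- replicate 3, the highest mouse, with an unadjusted p of 0.0271 (adjusted p = 0.997 in edgeR), and −0.045 without C2-/- replicate 1, the lowest mouse (unadjusted p = 0.859). It was −0.13 without WT replicate 4 and −0.033 without the 3 mice with *Fos*, an immediate early gene, above 50 CPM.

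*Dok7* (chromosome 5, 35056563 to 35087839, plus strand) encodes the cytoplasmic activator of MuSK. Its levels were 23.2, 39.3, 27.4 and 22.1 CPM in WT replicates 1 to 4 and 24.7, 24.6, 31.1 and 29.0 CPM in C2-/- replicates 1 to 4. WT replicate 2 was here the highest of the 8 mice, at 1.62 times the mean of the other WT mice, in contrast to its low *Agrn* and *Lrp4*. A log2 fold change of −0.03 ± 0.19 (95% interval −0.44 to 0.38, unadjusted p = 0.859 in edgeR) was found. It was 0.18 without WT replicate 2 (unadjusted p = 0.192).

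Each E-box found in the 250 bases before the RefSeq starts (GRCm38.p6) of the members with a promoter sequence is shown with its flanks. This sets the sequence beside genes that move apart in the same mice. An E-box is CANNTG, the letters that myogenic bHLH factors are known to read. The pattern CANNTG is its own reverse complement, so that a match on either strand is a match on both. Windows were at hand for *Agrn*, *Musk*, *Dok7*, *Etv5* and *Ufsp1*, 8 windows in 5 genes. Capitals mark the 6 letters of the E-box, and each line runs 5′ to 3′ on the strand of its gene.
*Agrn*, chr4:156186334-156186363, minus strand: gctctttgctacCAACTGcgactccctgtg
*Musk*, chr4:58285773-58285802, plus strand: ggccgagaaaggCATCTGgtattgtccttc
*Musk*, chr4:58285850-58285879, plus strand: cctccagccctcCACTTGcattactggcct
*Musk*, chr4:58285882-58285911, plus strand: gtgagttctcccCAGCTGgccacgtccatc
*Dok7*, chr5:35056605-35056634, plus strand: cagaggctgcttCAGATGgtcttaagcagt
*Etv5*, chr16:22439777-22439806, minus strand: caatgggcgccgCAGATGatggggcggccc
*Etv5*, chr16:22439760-22439789, minus strand: gatggggcggccCAGCTGgatttgcctgaa

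*Musk* held 3 E-boxes, which began 177, 100 and 68 bases before the start used for its window (58285712 to 58285961), the last of them a CAGCTG. The starts of the windows are not always the interval ends given above. The E-boxes of *Musk*, *Dok7* and *Agrn* lie inside the intervals stated for these genes, that of *Agrn* before a start within the gene. *Etv5* held 2, beginning 224 and 207 bases before 1 of its 2 starts, and their flanks overlap. In all, 4 of the 8 windows held an E-box, against 66.2% of all 32851 windows of this length, and 2 held CAGCTG, which is itself an E-box, against 13.0%. The N-box CCGGAA, the ETS-type element known from synapse-specific promoters, was in 0 of the 8 windows on either strand and in 12.0% of all windows. A match describes these letters and not binding, and its absence says only that the letters are not in the window.

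*Rapsn* (chromosome 2, 91032192 to 91053934, plus strand) encodes rapsyn, which links acetylcholine receptors to the cytoskeleton. Its expression was 49.5, 45.2, 36.3 and 39.1 CPM in WT replicates 1 to 4, and 43.3, 35.5, 35.5 and 40.6 CPM in C2-/- replicates 1 to 4. It was the steadiest of the 9 genes across mice, with a range of 1.39-fold and a residual SD of 0.17 on the log2 CPM scale, against a median of 0.26 for all tested genes. Between the genotypes *Rapsn* had a log2 fold change of −0.14 ± 0.13 (95% interval −0.43 to 0.16, unadjusted p = 0.324 in edgeR). It stayed below 0 in all 16 alternative analyses, between −0.20 and −0.06, and passed the unadjusted threshold in none of them.

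*Colq* (chromosome 14, 31523082 to 31577868, minus strand), the collagen tail of acetylcholinesterase, was at 13.4, 8.64, 10.3 and 9.45 CPM in WT replicates 1 to 4. The C2-/- replicates 1 to 4 were at 13.6, 7.92, 9.26 and 9.46 CPM. One mouse of each genotype, replicate 1, lay above 13 CPM and the other 6 lay between 7.92 and 10.3 CPM. *Colq* had a log2 fold change of −0.06 ± 0.20 (95% interval −0.49 to 0.38, unadjusted p = 0.783 in edgeR).

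**Figure D1:**
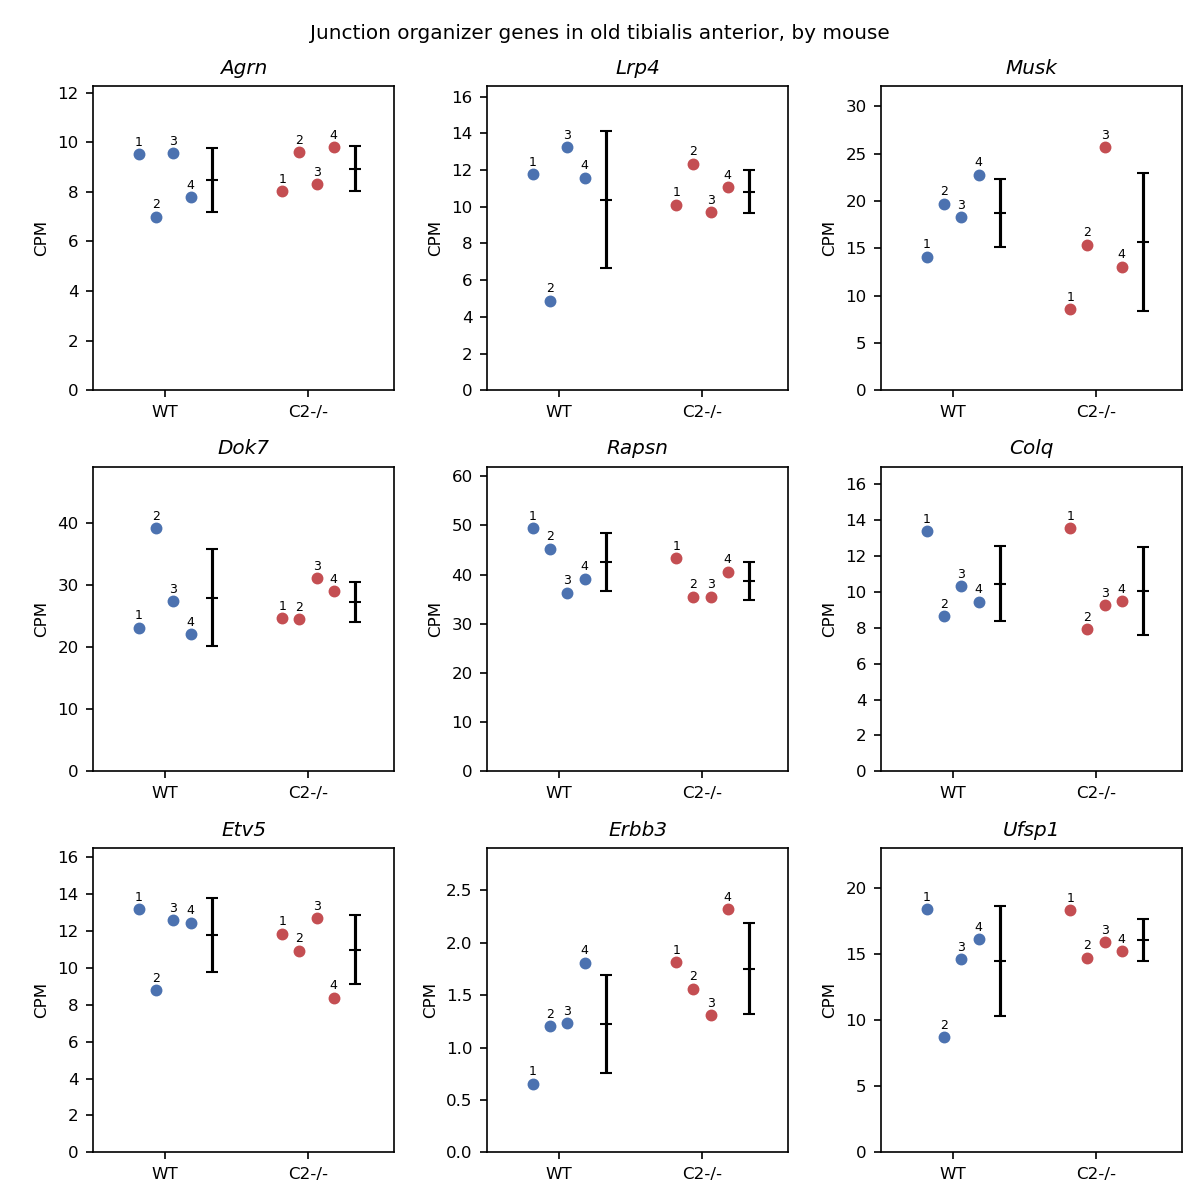
Expression of the 9 organizer genes in CPM (linear axes from 0) in each WT (blue) and C2-/- (red) mouse. Numbers give the replicate, and black bars the mean ± SD of 4 mice. The genotypes overlap in each panel, and WT replicate 2 lies lowest for *Agrn* (7.0), *Lrp4* (4.89) and *Ufsp1* (8.72) and highest for *Dok7* (39.3).

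*Etv5* (chromosome 16, 22381310 to 22439641, minus strand) encodes the ETS-family transcription factor needed for synapse-specific transcription. WT replicates 1 to 4 expressed it at 13.2, 8.79, 12.6 and 12.4 CPM, and C2-/- replicates 1 to 4 at 11.9, 10.9, 12.7 and 8.39 CPM. One mouse of each genotype, WT replicate 2 and C2-/- replicate 4, lay below the other 6. With this spread the log2 fold change was −0.10 ± 0.17 (95% interval −0.49 to 0.29, unadjusted p = 0.578 in edgeR).

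*Erbb3* (chromosome 10, 128567353 to 128589501, minus strand), a neuregulin receptor of muscle and of Schwann cells, was the least counted member, with 17 to 67 counts per mouse. Its level was 0.656, 1.2, 1.23 and 1.81 CPM in WT replicates 1 to 4 and 1.82, 1.56, 1.31 and 2.32 CPM in C2-/- replicates 1 to 4. All C2-/- mice lay above WT replicates 1, 2 and 3, and WT replicate 4 lay within the C2-/- range. The log2 fold change of 0.51 ± 0.33 (1.43-fold, 95% interval 0.858 to 2.38) was the largest of the 9, with p = 0.151 unadjusted and p = 0.968 adjusted in edgeR (exact permutation p = 0.143, 2-sided). Without WT replicate 4 the log2 fold change of *Erbb3* was 0.78, with an unadjusted p of 0.0473 (adjusted p = 0.971 in edgeR). It was 0.31 without WT replicate 1 (unadjusted p = 0.329), 0.35 without C2-/- replicate 4 (unadjusted p = 0.359), and 0.95 without the 3 mice with *Fos* above 50 CPM (unadjusted p = 0.0599).

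All 9 markers of Schwann cells and myelin were above 0 in every mouse. Their summed level was 116.2, 54.5, 70.9 and 82.2 CPM in WT replicates 1 to 4 and 88.3, 55.1, 48.8 and 63.7 CPM in C2-/- replicates 1 to 4. Of the 8 that were tested, 7 had a lower and 1 a higher level in C2-/-, none with an unadjusted p under 0.05, and the median log2 fold change was −0.36. The mouse with the lowest *Erbb3*, WT replicate 1, had the highest sum of these markers. The part of Schwann cells in the *Erbb3* level was not tested.

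*Ufsp1* (chromosome 5, 137294669 to 137295664, plus strand) encodes a small protease of the ubiquitin-fold modifier UFM1, and lies directly behind *Ache*, the gene of acetylcholinesterase. WT replicates 1 to 4 were at 18.4, 8.72, 14.6 and 16.1 CPM, and C2-/- replicates 1 to 4 at 18.3, 14.7, 15.9 and 15.2 CPM. WT replicate 2 lay below the other 7 mice, which ranged from 14.6 to 18.4 CPM. On the log2 scale the difference was 0.15 ± 0.20 (95% interval −0.31 to 0.60, unadjusted p = 0.485 in edgeR), and it was −0.03 without WT replicate 2 (unadjusted p = 0.845).

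RefSeq places 202 bases between the end of *Ache* and the start of *Ufsp1*, and 39 bases between *Ufsp1* and *Srrt* on its other side. The deposited table instead gives *Ache* an interval from 137270627 to 137295664 on the same strand, which covers the whole of *Ufsp1*. Counts of both genes are uncertain to that extent, since how shared reads were assigned is not stated in the sources used here. The sequence from the end of *Ache* up to the first exon that GENCODE vM21 gives for *Ufsp1* is shown because it is all that parts the genes, 162 bases with a GC content of 69.1%.
*Ufsp1*, chr5:137294467-137294628, plus strand: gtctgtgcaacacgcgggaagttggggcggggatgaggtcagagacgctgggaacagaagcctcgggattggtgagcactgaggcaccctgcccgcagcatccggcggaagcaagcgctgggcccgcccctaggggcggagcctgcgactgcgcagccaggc

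*Ache* was at 57.9, 23.1, 57.8 and 57.1 CPM in WT replicates 1 to 4, and at 69.1, 45.5, 49.8 and 49.5 CPM in C2-/- replicates 1 to 4. As for *Ufsp1*, WT replicate 2 was the lowest mouse and replicate 1 the highest of each genotype. The root-mean-square difference of their centred log2 CPM over the 8 mice was 0.17. No pair of members was as close by this measure, the nearest being *Rapsn* and *Colq* at 0.21. Among all tested genes outside the group, however, *Prss23* lay nearest to *Ufsp1*, at 0.06, so that *Ache* was not the closest gene. The nearest of so many genes can be close for that reason alone. Where *Ache* stood among them was not determined, so this does not decide whether its closeness is particular.

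Other overlaps touch a part or the whole of a member. RefSeq places the noncoding RNA *Gm46878* over a part of *Agrn*, *Gm13778* over the whole of *Rapsn* and the microRNA gene *Mir6917* within *Erbb3*. The interval of *Musk* lies within those that the table gives to 6 other genes, each of which spans at least 128.4 Mb, and counting by strand is not stated in the sources used here.

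**Figure D2:**
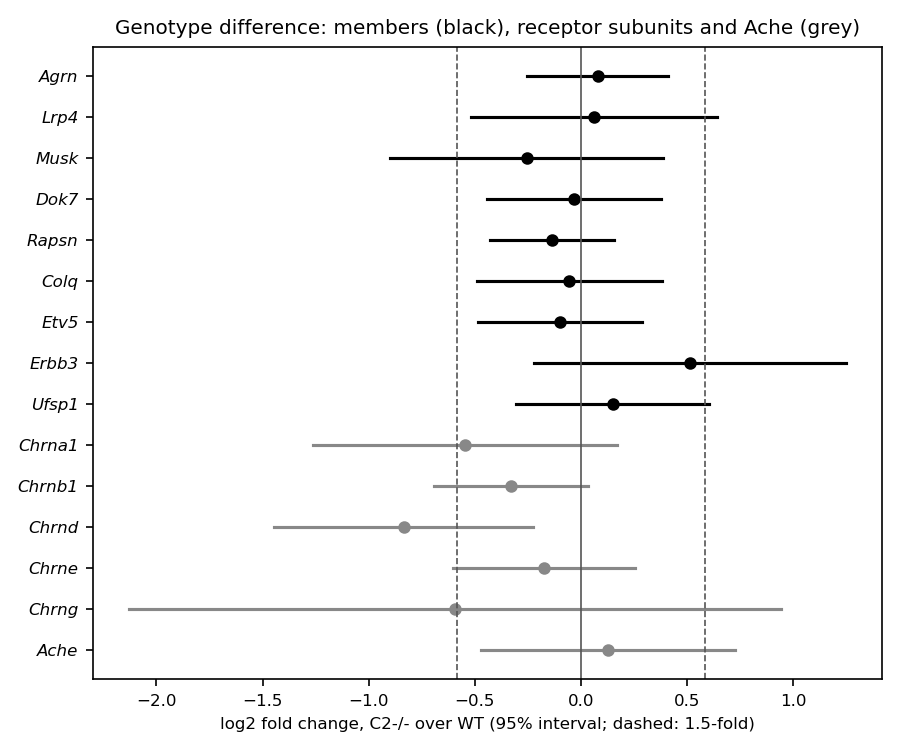
Log2 fold change of C2-/- over WT with its 95% interval from edgeR's quasi-likelihood test (x axis) for the 9 organizers (black) and for the receptor subunits and *Ache* (grey). Dashed lines mark 1.5-fold. Each black interval spans 0, from −0.26 for *Musk* to 0.51 for *Erbb3*, and *Chrnd* (−0.84) is the one grey gene whose interval does not.

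The members were ranked by level only per transcript length, as TPM values deposited by the authors, which are scaled to transcript length and library size. *Rapsn* was the most abundant member, at 47.3 ± 4.35 TPM (SD over 8 mice), followed by *Ufsp1* at 30.1 ± 6.23 and *Dok7* at 17.0 ± 2.95 TPM. *Colq* (6.60 ± 1.27 TPM), *Etv5* (5.49 ± 0.96 TPM) and *Musk* (5.41 ± 1.80 TPM) came next. *Lrp4* (2.58 ± 0.72 TPM) and *Agrn* (2.40 ± 0.38 TPM) were lower, and *Erbb3* was the lowest at 0.686 ± 0.25 TPM.

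By mean TPM, the kinase, its adaptor, the scaffold and the collagen tail all stood above the ligand and its receptor, and 68.9-fold separated the means of *Rapsn* and *Erbb3*. Among neighbours in this order, the ranges over the 8 mice were separate only between *Rapsn* and *Ufsp1*, between *Dok7* and *Colq*, and between *Agrn* and *Erbb3*. *Ufsp1* exceeded *Dok7* in 7 of 8 mice, WT replicate 2 being the exception with 15.3 TPM for *Ufsp1* and 21.7 TPM for *Dok7*. *Etv5* exceeded *Musk* in 4 of 8 mice, so that these neighbours in the order did not differ beyond their spread.

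**Figure D3:**
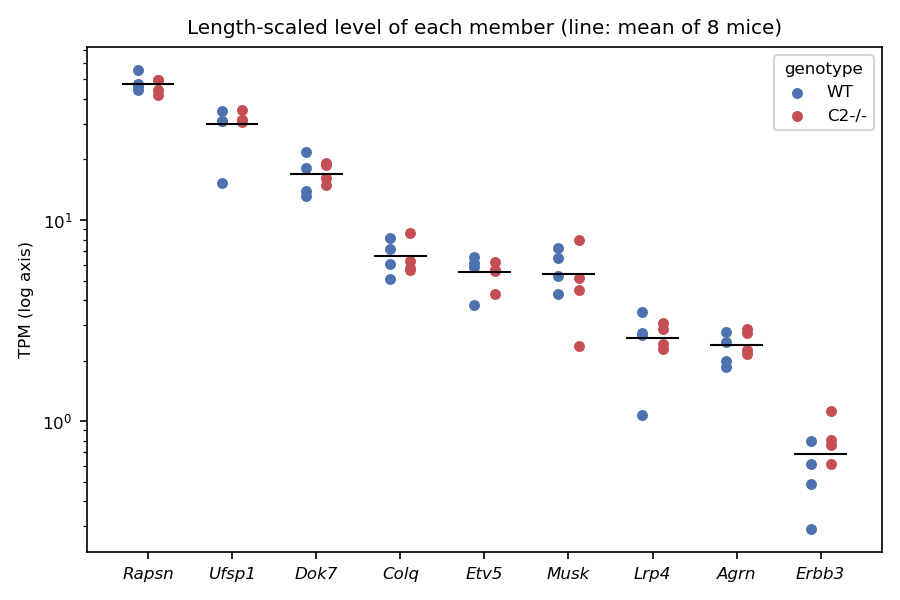
Length-scaled level of each member in TPM (logarithmic axis) in WT (blue) and C2-/- (red) mice, ordered by the mean of 8 mice (line), from 47.3 TPM for *Rapsn* to 0.686 TPM for *Erbb3*. The single low points of *Ufsp1* (15.3 TPM) and *Lrp4* (1.07 TPM) are WT replicate 2.

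The members did not move as a block from mouse to mouse. Their median residual SD within genotypes was 0.30 on the log2 CPM scale, against 0.26 over all tested genes. In WT replicate 2, *Agrn*, *Lrp4* and *Ufsp1* were the lowest of the 8 mice and *Colq*, *Etv5* and *Erbb3* the second lowest, while *Dok7* was the highest, *Rapsn* the second highest and *Musk* the third highest. Over all tested genes, this mouse was the lowest for 24.5% and the highest for 27.5%. The mean of the 9 centred log2 CPM values was −0.22 in this mouse and between −0.03 and 0.07 in the other 7. Without this mouse the log2 fold changes of the members not given so far were 0.0031 for *Agrn*, −0.22 for *Musk*, −0.10 for *Rapsn*, −0.13 for *Colq*, −0.21 for *Etv5* and 0.51 for *Erbb3*, and 0 of 9 members passed either threshold in edgeR. By root-mean-square difference over the 8 mice, *Lrp4* and *Ufsp1* were nearest to each other (0.24), *Etv5* was nearest to *Ufsp1* (0.24), *Agrn* to *Rapsn* (0.26), *Dok7* to *Rapsn* (0.30), *Musk* to *Dok7* (0.46) and *Erbb3* to *Agrn* (0.52). Among genes outside the group, *Dffa* (0.04), *Cr1l* (0.05), *Rnf10* (0.05), *Usp10* (0.05) and *Egln2* (0.05) lay nearest to the mean of the members, with the 8 mice and their libraries shared by all these values.

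The acetylcholine receptor subunits, which rapsyn clusters, stood highest in WT replicate 2 in 4 of 5 cases, against 27.5% of all tested genes. *Chrna1*, the ligand-binding subunit, was at 26.1, 60.3, 20.3 and 25.4 CPM in WT replicates 1 to 4 and at 26.3, 23.4, 25.3 and 15.4 CPM in C2-/- replicates 1 to 4. *Chrng*, the subunit of the embryonic receptor, was at 2.12 CPM in WT replicate 2 and between 0.231 and 0.922 CPM in the other 7 mice. *Chrne*, which replaces it in the adult receptor, was within their range at 10.6 CPM.

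Of 10 genes listed here as rising in denervated muscle fibres, WT replicate 2 was above the other 7 mice for 6 and below them for 2. Among the 6 were *Ncam1*, an adhesion molecule, at 38.2 CPM against 11.9 to 18.4 CPM, *Myog*, a myogenic factor, at 16.7 CPM against 2.68 to 6.31 CPM, and *Runx1*, a transcription factor, at 21.4 CPM against 2.88 to 9.63 CPM. *Hdac4* and *Myh8*, which are on the same list, lay below the other mice. Over all tested genes, WT replicate 2 was the highest mouse for 27.5% and the lowest for 24.5%. Of 10 other transcripts enriched in synaptic nuclei, a list that also holds *Ncam1*, 6 were lowest in this mouse, among them *Lrtm1* at 44.0 CPM against 70.7 to 147.7 CPM, and 1, *Ncam1*, was highest. The sum of the immediate early genes was raised in 3 mice, WT replicates 2 and 4 and C2-/- replicate 2 (492 to 1096 CPM), against 34.4 to 81.9 CPM in the other 5, and the part of this in the member levels was not tested.

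**Figure D4:**
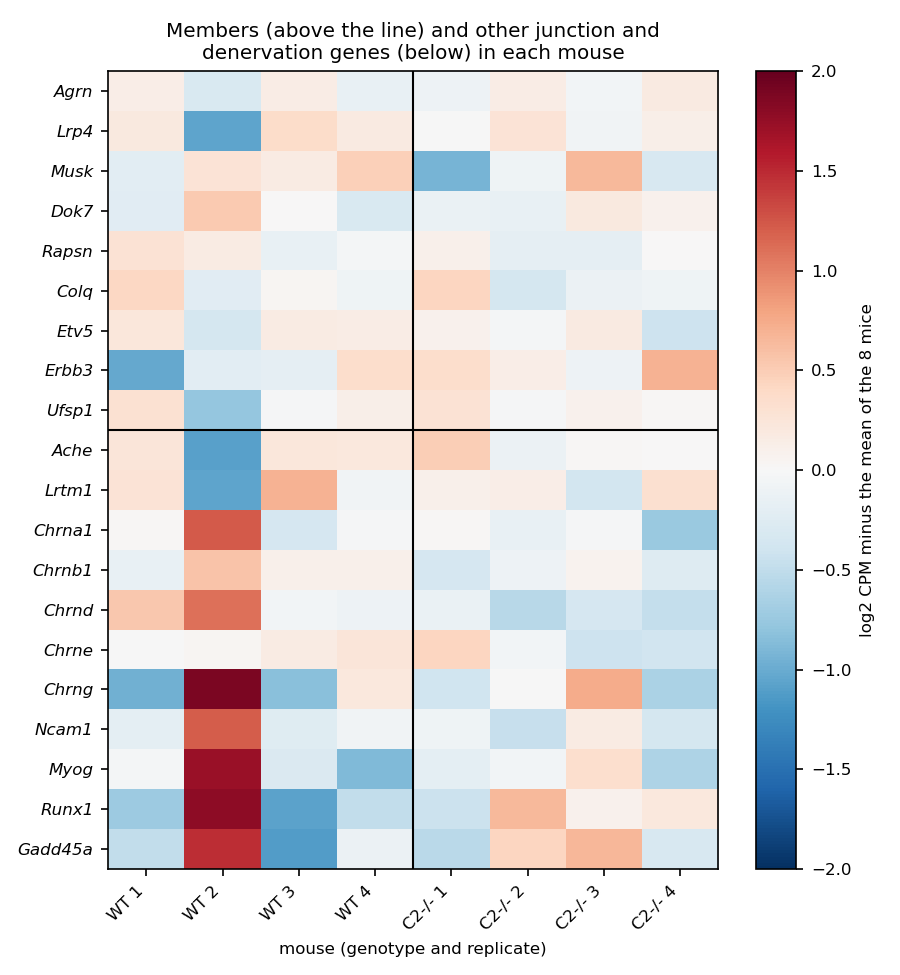
Log2 CPM minus the mean of the 8 mice (colour, −2 to 2) for the 9 members (above the horizontal line) and for other junction and denervation genes (below), in 4 WT and 4 C2-/- mice (columns). In WT replicate 2, *Lrp4*, *Ufsp1*, *Ache* and *Lrtm1* are low while *Chrna1*, *Chrng*, *Ncam1*, *Myog* and *Runx1* are high.

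The receptor genes were then set beside the members in the genotype comparison. Of the 6 genes for receptor subunits and *Ache*, 5 had a lower and 1 a higher level in C2-/-, with a median log2 fold change of −0.44, and 1 passed an unadjusted p of 0.05. *Chrnd*, the delta subunit, was at 6.09, 9.08, 4.03 and 3.87 CPM in WT replicates 1 to 4 and at 3.82, 2.83, 3.30 and 2.98 CPM in C2-/- replicates 1 to 4. Its ranges did not overlap, which held for 3.38% of all tested genes, although WT replicate 4 and C2-/- replicate 1 were nearly equal. *Chrnd* had a log2 fold change of −0.84 ± 0.27, with an unadjusted p of 0.0121 (adjusted p = 0.755 in edgeR), and of −0.52 without WT replicate 2 (unadjusted p = 0.0345).

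The other subunits had log2 fold changes of −0.55 for *Chrna1* (unadjusted p = 0.119), −0.33 for *Chrnb1* (0.0706), −0.18 for *Chrne* (0.384) and −0.59 for *Chrng* (0.409), and *Ache* had 0.13 (0.648). Without WT replicate 2 the log2 fold changes were −0.08 for *Chrna1*, −0.17 for *Chrnb1*, −0.19 for *Chrne* and −0.10 for *Ache*. *Chrng* was at 2.12 CPM in WT replicate 2, against a mean of 0.369 CPM in the other WT mice and of 0.533 CPM in C2-/-. In the table, *Chrnd*, *Chrng*, *Myog* and *Dpt* lie within a 191.9-Mb interval given to *Rcor3*, *Lrtm1* overlaps *Cacna2d3* on the same strand, and *Chrnb1* overlaps *Zbtb4* and *Mybpc2* overlaps *Fam71e1* on the other strand.

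Of 16 intracellular partners of MuSK signalling, among them *Crk*, *Abl1*, *Rac1*, *Dvl1* and *Ctnnb1*, 8 were higher and 8 lower in C2-/-, 0 passed an unadjusted p of 0.05 in edgeR, and the median log2 fold change was −0.01. In the neuregulin group, *Nrg1* and *Nrg2* did not pass the filter on low counts, and 3 of the 6 tested genes were higher. *Etv4*, an ETS factor related to *Etv5*, was at 2.08, 0.985, 1.05 and 1.27 CPM in WT replicates 1 to 4 and 3.26, 1.97, 2.09 and 1.63 CPM in C2-/- replicates 1 to 4. Its log2 fold change was 0.73 ± 0.32 (unadjusted p = 0.0446, adjusted p = 0.922 in edgeR), and without WT replicate 2 it was 0.61 (unadjusted p = 0.0951). *Etv4* passed the unadjusted threshold in 9 of 16 alternatives.

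Among 10 genes of the synaptic basal lamina, 7 were higher and 3 lower in C2-/-, with a median log2 fold change of 0.11. *Col13a1*, a transmembrane collagen of the junction, was at 0.193, 0.182, 0.373 and 0.651 CPM in WT replicates 1 to 4 and at 1.17, 0.781, 0.993 and 1.11 CPM in C2-/- replicates 1 to 4. These levels were low, at 5 to 32 counts per mouse, but did not overlap, which held for 3.38% of all tested genes. The log2 fold change of *Col13a1* was 1.52 ± 0.43 (unadjusted p = 0.00503, adjusted p = 0.638 in edgeR). It lay between 1.26 and 2.02 in the 15 alternatives that tested it, each with an unadjusted p under 0.05. The table gives *Egr2* an interval of 67.24 Mb that overlaps it on the other strand.

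In the dystroglycan complex of the postsynaptic membrane, 3 of 7 genes were higher and 4 lower, with a median log2 fold change of −0.18. Of the 10 other synaptic transcripts, 4 were higher and 6 lower, with a median of −0.03. *Ano5*, a membrane protein of the anoctamin family, was at 90.4, 67.8, 127.2 and 106.8 CPM in WT replicates 1 to 4 and at 160.5, 142.3, 170.9 and 175.2 CPM in C2-/- replicates 1 to 4. Every C2-/- mouse lay above every WT mouse, and its log2 fold change was 0.73 ± 0.18 (unadjusted p = 0.0021, adjusted p = 0.571 in edgeR). The genotypes did not overlap for 3.38% of all tested genes. *Ano5* (51510017 to 51598707) lies on chromosome 7, as does the targeted *Mybpc2* (44501699 to 44524722). The part of this position in the level of *Ano5* was not tested.

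Of the 9 denervation genes that were tested, 4 were higher and 5 lower in C2-/-, with a median log2 fold change of −0.14. The 2 with an unadjusted p under 0.05 were the developmental myosins *Myh3* (log2 fold change 1.14, adjusted p = 0.919 in edgeR) and *Myh8* (0.91, adjusted p = 0.92). Without C2-/- replicate 3 the log2 fold change was 0.41 for *Myh3* (unadjusted p = 0.248) and 0.57 for *Myh8* (unadjusted p = 0.167), and without WT replicate 2 it was 1.10 (unadjusted p = 0.0696) and 0.77 (unadjusted p = 0.0886). *Myh3* passed the unadjusted threshold in 9 and *Myh8* in 8 of 16 alternatives.

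None of the markers of other cells passed the adjusted threshold in edgeR. All 5 markers of fibro-adipogenic progenitors had a log2 fold change above 0 (summed level 235.1 to 318.3 CPM in WT and 339.5 to 384.3 CPM in C2-/-), of which *Dcn* (log2 fold change 0.32, unadjusted p = 0.028) and *Dpt* (0.48, unadjusted p = 0.00537) passed the unadjusted threshold. Of 5 tested tendon markers 4 were higher (58.5 to 175.4 CPM in WT and 91.0 to 241.2 CPM in C2-/-), and *Tnmd* passed it (1.43, unadjusted p = 0.0265). *Dpt* passed it in 16 of 16 alternatives, *Dcn* in 12 of 16 and *Tnmd* in 11 of 15. Without the 3 mice with *Fos* above 50 CPM, *Dcn* was at 0.18 (unadjusted p = 0.218) and *Tnmd* at 0.97 (unadjusted p = 0.144). None of the endothelial, macrophage or satellite cell markers passed an unadjusted p of 0.05. All 4 macrophage markers had a log2 fold change above 0 (12.0 to 27.8 CPM in WT and 20.9 to 34.9 CPM in C2-/-), as had 2 of 5 endothelial markers (198.0 to 294.4 CPM in WT and 198.9 to 260.2 CPM in C2-/-) and 2 of 3 satellite cell markers (1.42 to 2.73 CPM in WT and 1.44 to 3.68 CPM in C2-/-). Among the 7 fibre markers 2 were higher and 5 lower, and *Myh7*, the slow myosin, had a log2 fold change of −2.47 (unadjusted p = 0.0322), which was −0.51 without WT replicate 4 (unadjusted p = 0.458). The part of these cells in the levels of the members was not tested.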

How the data were processed

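RNA of 8 TA muscles, 4 WT and 4 C2-/-, had been enriched for poly(A), sequenced as DNA nanoballs and aligned with HISAT to GRCm38.p6, the build of the coordinates given here. Per the methods of the study, reads were counted with featureCounts. The labels also name Bowtie2 and DESeq2. The authors deposited expected counts per gene, not normalized, of which 5.5% to 6.53% per mouse are not whole, and these were rounded. They also deposited TPM values, scaled to transcript length, which were used for levels between genes. The other 8 columns of values per mouse (FPKM) and the columns of the authors' own comparison (fold change, p-value, q-value) were not used. One of the 16687 rows has no gene ID, and 24 symbols were restored from gene IDs. An entry on growth in the labels names a younger age than the 22 months given for each sample. The same-numbered mice are different animals, and nothing says that the samples came from separate litters or cages, so p-values measure the spread between these mice.

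The genotypes were compared by edgeR's quasi-likelihood test (edgeR 4.0.16, R 4.3.3) with TMM factors (0.929 to 1.03), edgeR's default count filter and Benjamini-Hochberg adjustment over 12542 genes. Standard errors are the log2 fold change over the root of F. Single levels were also compared with 2-sided exact permutation tests over 70 splits. Centred values are log2 CPM with a prior count of 2. The tests had been tried on simulated data. As alternatives, TMM was exchanged for RLE size factors, the test for DESeq2 1.42.0 or for limma-voom (limma 3.58.1, plain or with quality weights), the count filter was loosened or tightened, the replicate number was entered as a block, and each mouse was left out in turn. The members and the gene lists were chosen with earlier results of these data known. Named genes are the members, the receptor subunits and *Ache*, listed genes with an unadjusted p under 0.05, genes nearest in pattern or position, and *Mybpc2*. One gene that meets this rule is not reported here. The genes singled out for WT replicate 2 (*Ncam1*, *Myog*, *Runx1*, *Hdac4*, *Myh8* and *Lrtm1*) were chosen after their values were seen. Promoter sequences are from RefSeq (GRCm38.p6), with none at hand for *Lrp4*, *Rapsn*, *Colq* and *Erbb3*. Other calculations used Python 3.11.15, pandas 2.3.3, numpy 2.4.6 and scipy 1.17.1.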

Additional observations from a re-analysis of the deposited data

Results flagged for a closer look

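Dixon's test at the 95% level was applied to the 4 mice of each genotype for 25 genes, 50 groups in all, of which chance alone marks about 1 in 20. It marked 6 values, 1 of them in a member. *Etv5* was at 8.79 CPM in WT replicate 2, against 12.4 to 13.2 CPM in the other WT mice. The same mouse was marked for *Ache*, at 23.1 CPM against 57.1 to 57.9 CPM, and for *Chrna1*, at 60.3 CPM against 20.3 to 26.1 CPM. The other marked values were *Mybpc2* at 38.3 CPM in C2-/- replicate 3 (3.85 to 4.35 CPM in the other C2-/- mice), *Myh8* at 4.25 CPM in WT replicate 3 (1.59 to 1.94 CPM) and *Myh7* at 20.9 CPM in WT replicate 4 (0.365 to 2.62 CPM).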

How the results depend on the processing

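Over 16 alternatives, 1 of them chosen after seeing the data (leaving out the 3 mice with *Fos* above 50 CPM), 127 of 144 log2 fold changes of the members kept their direction and their side of the unadjusted threshold, 15 changed sign and 2 passed it. The count of members past the adjusted threshold was 0 in each alternative. Past the unadjusted threshold, the counts ranged from 0 to 1 in each direction when 1 mouse was left out, *Erbb3* (0.78) being higher without WT replicate 4 and *Musk* (−0.60) lower without C2-/- replicate 3. With quality weights in limma-voom, *Lrp4* was at −0.051 and *Dok7* at 0.12. Without the 3 mice high in *Fos*, *Agrn* was at −0.13, *Lrp4* at −0.28, *Dok7* at 0.17 and *Ufsp1* at −0.0002. With 1 mouse left out, the ranges that crossed 0 were −0.17 to 0.20 for *Lrp4* (−0.17 without WT replicate 2, −0.007 without C2-/- replicate 2), −0.12 to 0.18 for *Dok7* (0.18 without WT replicate 2, 0.02 without C2-/- replicate 1 and without C2-/- replicate 2), −0.23 to 0.085 for *Colq* (0.085 without WT replicate 1, 0.05 without C2-/- replicate 2), −0.21 to 0.0087 for *Etv5* (0.0087 without C2-/- replicate 4) and −0.026 to 0.28 for *Ufsp1* (−0.026 without WT replicate 2). The cause was not tested. The median of the 9 genes ranged from −0.10 to 0.085.

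The replicate numbers did not pair the mice: the deviations of same-numbered mice correlated at 0.27, 0.04, −0.05 and 0.02 for numbers 1 to 4, and only number 1 matched best with its own number. With the replicate number as a block, 0 members passed either threshold, the median log2 fold change was −0.0016, and 4 of all genes passed the adjusted threshold, as without it. DESeq2 called 39 of all genes at an adjusted p under 0.05 against 4 in edgeR, none of them a member. Counting error weighs most on *Erbb3*, the member with the fewest counts (17 to 67 per mouse).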
